A study of Mus musculus with 6 samples.

Results

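Of the 55341 genes in the count tables, 9 genes of cerebellar GABAergic neurons were read in cultured mouse cerebellar granule neurons (CGNs): Gad1, Gad2, Slc32a1, Slc6a5, Pax2, Lhx1, Lhx5, Calb1 and Pvalb. They were listed by name for their roles, with no threshold on their measured values, by a choice made with earlier results of these data known. The series held 6 RNA-seq libraries, 3 labelled DMSO (the vehicle) and 3 labelled GSK-126, a small molecule that inhibits EZH2, the enzyme that writes H3K27me3, the trimethylation of a histone H3 lysine that is found on repressed genes. Both groups came from CD1-IGS pups near the end of the first postnatal week. According to the study's methods, granule neuron progenitors were enriched on a Percoll gradient, each replicate pooled the cerebella of litters, and both groups received cytosine arabinoside on the second day in vitro to stop the division of other cells. Agent and replicate number come from the labels, which name cerebellum as the tissue and state no dose or day of addition.

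GABAergic neurons make GABA from glutamate with the decarboxylases GAD67 (Gad1) and GAD65 (Gad2), and load it into synaptic vesicles through the transporter VGAT (Slc32a1), which also carries glycine. In the cerebellum they include basket, stellate and Golgi interneurons and the Purkinje cells, and all descend from progenitors of the ventricular zone, whereas granule neurons are glutamatergic and come from the rhombic lip. Pax2 marks young interneurons, Slc6a5 (the glycine transporter GlyT2) marks mature glycinergic ones such as Golgi cells, Lhx1 and Lhx5 are LIM-homeodomain factors best known here from Purkinje cells, and the calcium-binding proteins Calb1 and Pvalb label Purkinje cells, with Pvalb also in basket and stellate cells. The list therefore marks GABAergic neurons in general rather than interneurons alone.

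All 9 genes were detected in every library and passed the filter on low counts, which 16343 genes passed. With all libraries in 1 comparison and the replicate number left aside, none of the 9 differed between GSK-126 and DMSO at an adjusted p under 0.05 (edgeR quasi-likelihood test, Benjamini-Hochberg over all genes tested), as none of all genes tested did (0%). At an unadjusted p under 0.05 the same fit had 1 of the 9, Slc32a1, against 981 (6.0%) of all genes tested, and DESeq2 without the block called 48 genes, none of them among the 9. With the replicate number as a block, Slc32a1 was lower with GSK-126 and the other 8 did not pass, against a background of 597 genes called (3.65%), 365 higher (2.23%) and 232 lower (1.42%). At an unadjusted p under 0.05 that fit had Slc32a1 and Gad1, 2 of the 9, against 16.7% of all genes tested.

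In direction the 9 genes leaned lower with GSK-126. The log2 fold change was below 0 for 7 of the 9, with a median of -0.24 without the block and -0.26 with it, beside -0.0017 and -0.0020 over all genes tested. The median ratio of the 9 within a replicate pair was -0.35 in pair 1, -0.37 in pair 2 and -0.19 in pair 3 on the log2 scale. Gad1, Slc32a1, Pax2 and Lhx1 were lower in all 3 pairs, 4 of 9 beside 19.3% of all genes tested, and no member was higher in all 3 pairs (19.7% of all genes tested were). Slc32a1 was also the only one of the 9 whose DMSO and GSK-126 libraries did not overlap, beside 10.9% of all genes tested. The size of the median rested on single libraries, since it went to -0.39 when DMSO replicate 2 was left out, to -0.08 when DMSO replicate 3 was, and to -0.03 when GSK-126 replicate 2 was. In bulk RNA, fewer GABAergic cells and less of a transcript per cell cannot be told apart.

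**Figure D1:**
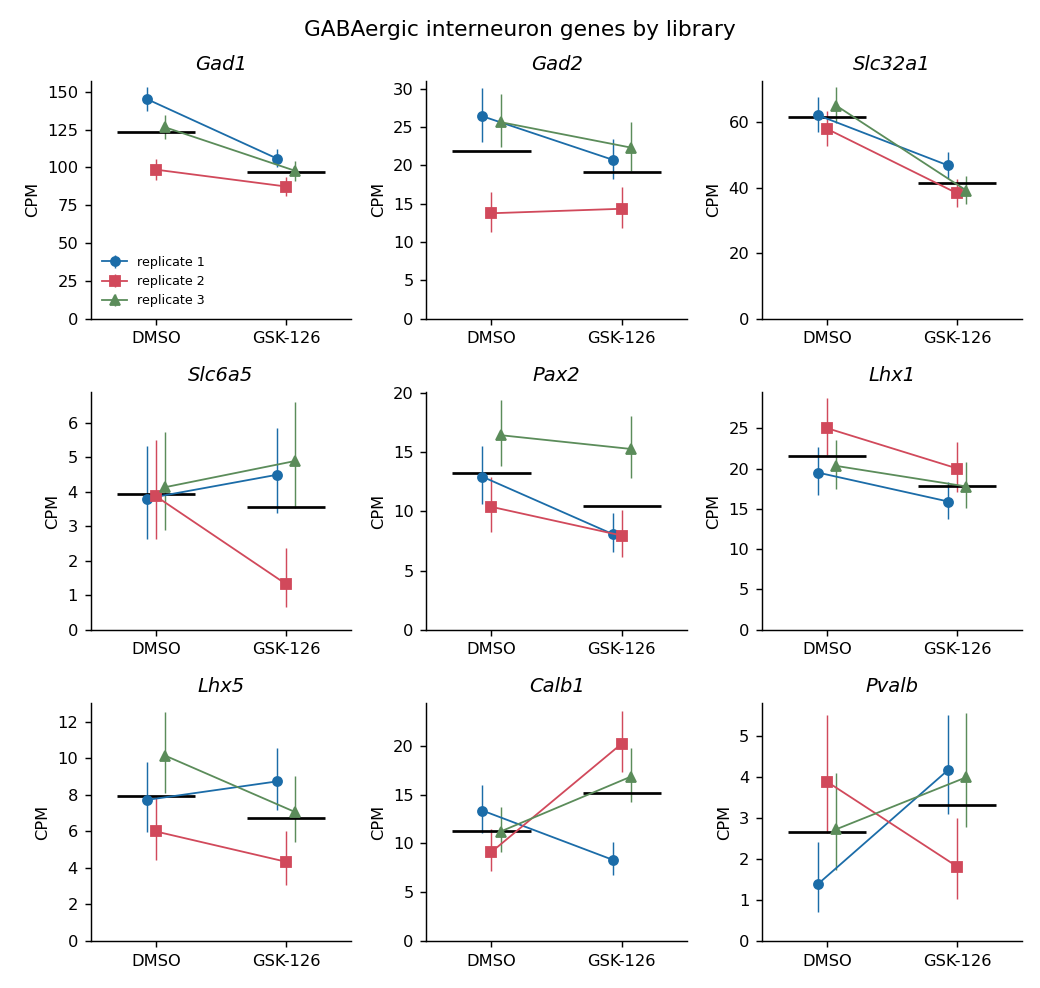
CPM (read counts scaled with TMM factors to make libraries comparable) of the 9 genes in the 6 libraries, 1 panel per gene with its own axis from 0. Points are libraries, coloured by replicate number and joined within a number, vertical bars are exact Poisson 95% intervals of the count, and black lines are group means. Slc32a1 has its 3 GSK-126 points below its 3 DMSO points, Gad1, Pax2 and Lhx1 have 3 descending lines, and Calb1 and Pvalb have lines that cross.

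Slc32a1, at chr2:158610767-158615748 on the plus strand (GRCm38), carried the clearest difference. Its CPM was 62.1, 57.9 and 65.0 in DMSO replicates 1 to 3, and 46.7, 38.2 and 39.1 in GSK-126 replicates 1 to 3. Every GSK-126 library was below every DMSO library, and in each of the 3 pairs the GSK-126 value was below the DMSO value by more than the counting intervals of the 2 libraries. The means were 61.6 ± 3.57 and 41.3 ± 4.69 CPM (SD, n = 3 each). With the replicate block the log2 fold change was -0.58 (standard error 0.124, 95% confidence interval -0.85 to -0.31, edgeR adjusted p = 0.0283), which is 0.669 times the DMSO level. Without the block the log2 fold change was also -0.58 (standard error 0.138) and the adjusted p was 0.659, and over all alternatives tried the adjusted p ran from 0.0115 to 1.00. The blocked call rested on pairs 2 and 3. Without pair 2 the blocked log2 fold change was -0.55 (edgeR adjusted p = 0.130), without pair 3 it was -0.50 (adjusted p = 0.248), and without pair 1 it was -0.67 (adjusted p = 0.0115).

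An antisense gene, Gm14205 (chr2:158610910-158611820, minus strand), covers 697 bases, or 24.9%, of the Slc32a1 exons. The strand setting of the counting was not given in the sources used here, so reads of the pair cannot be assigned to a strand with certainty. Gm14205 has 739 exon bases, of which those 697 are shared. Its counts may therefore be reads of Slc32a1 transcripts rather than of a separate gene, which was not tested. Gm14205 had 151, 140 and 149 counts in DMSO and 208, 99 and 95 in GSK-126, which is 17.4, 17.5 and 17.6 CPM against 17.3, 11.9 and 10.8 CPM. It was nearly the same in both libraries of pair 1, where Slc32a1 was lower with GSK-126, and was lower in pairs 2 and 3. Its read density over its own exons was 1.03 to 1.14 times that of Slc32a1 in DMSO and 1.05 to 1.40 times in GSK-126. With the counts of both genes summed, a setting added after the data were seen, the blocked log2 fold change was -0.54 (edgeR adjusted p = 0.0359) and the unblocked one was -0.53 (adjusted p = 0.769).

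A second noncoding gene, Gm14204, starts on the opposite strand just upstream of Slc32a1 and was looked at because of its position, after its values were seen. It had 9.92, 7.0 and 11.9 CPM in DMSO and 8.91, 11.0 and 12.9 CPM in GSK-126. It was lower in pair 1 and higher in the other 2 pairs, unlike Slc32a1, and did not pass (blocked log2 fold change 0.19, SE 0.232, edgeR adjusted p = 0.759). The sequence between and around the 2 starts is shown because it holds the promoter of the member whose level differed. It is the 250 bases before the RefSeq start of Slc32a1 (GRCm38.p6, chr2:158610508-158610757, plus strand), of which 196 lie in annotated exons of any gene, with each CG dinucleotide in capitals:
Slc32a1: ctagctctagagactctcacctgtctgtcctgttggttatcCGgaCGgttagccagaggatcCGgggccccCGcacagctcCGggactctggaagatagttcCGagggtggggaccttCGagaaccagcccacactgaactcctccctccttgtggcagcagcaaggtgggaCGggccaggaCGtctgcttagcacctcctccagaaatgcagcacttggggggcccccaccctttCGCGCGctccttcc

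CG dinucleotides are the usual target of DNA methylation, and dense stretches of them mark the promoters where Polycomb complexes such as that of EZH2 are often found. This window held 12, and 33.5% of 32841 RefSeq promoter windows of the same length held at least as many, against a median of 6 over all windows, 92.1% of which held at least 1. Of the 9 genes 7 had a RefSeq window, 11 windows in all. Gad1 had 17 CG dinucleotides (23.5% of windows had as many), Gad2 had 13 (31.5%) and Lhx1 had 26 (9.59%). The genes with several windows differed among their own starts, as Slc6a5 had 11 and 7, Pax2 had 5, 20 and 25, and Pvalb had 23 and 4, so that 1 window each of Pax2 and Pvalb lay below the median. These counts describe the sequence only, since neither H3K27me3 nor DNA methylation was measured in these libraries.

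The GABA-synthesising enzymes were less clear than the vesicular transporter. Gad1 (chr2:70553072-70602014, plus strand) had 145, 98.5 and 127 CPM in DMSO and 106, 87.4 and 97.7 CPM in GSK-126. It was lower with GSK-126 in each pair, beyond the counting intervals in pairs 1 and 3, but DMSO replicate 2 lay among the GSK-126 libraries, so the groups overlapped. Its log2 fold change was -0.34 with the block (standard error 0.110, interval -0.58 to -0.10, edgeR adjusted p = 0.139) and -0.35 without it (standard error 0.165, adjusted p = 0.825). Gad2 (chr2:22622205-22693874, plus strand) had 26.4, 13.8 and 25.6 CPM in DMSO and 20.7, 14.3 and 22.3 CPM in GSK-126. Both replicate 2 libraries were the low ones, at nearly the same value, and the counting intervals overlapped in all 3 pairs. The blocked log2 fold change of Gad2 was -0.17, with an interval of -0.54 to 0.19, which holds both no difference and the size seen in Gad1.

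The proportions of the 3 genes of GABA synthesis and loading varied from library to library. Per exon length, Gad1 was 4.23, 5.51 and 3.80 times Gad2 in DMSO replicates 1 to 3 and 3.93, 4.69 and 3.37 times Gad2 in GSK-126 replicates 1 to 3. Replicate 2 had the highest ratio and replicate 3 the lowest in both groups. Slc32a1 was 1.17, 1.60 and 1.40 times Gad1 per length in DMSO and 1.21, 1.19 and 1.09 times Gad1 in GSK-126. That ratio was lower with GSK-126 in pairs 2 and 3 and slightly higher in pair 1.

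Slc6a5 (chr7:49910146-49963856, plus strand), the glycine transporter of glycinergic interneurons, was near the limit of what these libraries could show. It had 33, 31 and 35 counts in DMSO and 54, 11 and 43 in GSK-126, which is 3.81, 3.88 and 4.14 CPM against 4.50, 1.33 and 4.90 CPM. GSK-126 replicate 2 alone was low, and the other 2 GSK-126 libraries were above all 3 DMSO libraries. The log2 fold change of -0.13 (standard error 0.473, edgeR adjusted p = 0.975) rested on that library, and without it the value was 0.25.

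The 3 transcription factors all had negative fold changes, none of which passed. Pax2 (chr19:44756045-44837871, plus strand), the marker of young interneurons, had 12.9, 10.4 and 16.4 CPM in DMSO and 8.08, 7.95 and 15.3 CPM in GSK-126. It was lower in each pair, beyond the counting intervals in pair 1 only, and replicate 3 was the highest in both groups. Its log2 fold change was -0.38 with the block (standard error 0.211, interval -0.85 to 0.08, edgeR adjusted p = 0.404) and -0.35 without it.

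Lhx1 (chr11:84518284-84525535, minus strand) had 19.5, 25.0 and 20.3 CPM in DMSO and 15.9, 20.0 and 17.8 CPM in GSK-126. Its log2 ratio within pairs 1 to 3 was -0.29, -0.32 and -0.19, with counting intervals that overlapped in all 3 pairs. The blocked log2 fold change was -0.27 (standard error 0.163, edgeR adjusted p = 0.446). Its paralog Lhx5 (chr5:120431699-120441223, plus strand) had 7.73, 6.0 and 10.2 CPM in DMSO and 8.74, 4.34 and 7.06 CPM in GSK-126. Lhx5 was higher in pair 1 and lower in pairs 2 and 3, with counting intervals that overlapped in all 3 pairs, as for Lhx1. Per length Lhx1 was 1.32 to 2.75 times Lhx5 in DMSO and 1.20 to 3.05 times Lhx5 in GSK-126, highest in replicate 2 of both groups. An antisense gene, Gm27199, covers 69 bases (2.57%) of the Lhx5 exons and had 4 to 12 counts per library.

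Lhx1 shares its promoter region with a long noncoding RNA gene, Lhx1os, which starts on the other strand and was also looked at for its position, after its values were seen. Lhx1os had 11.2, 15.3 and 10.9 CPM in DMSO and 7.91, 9.76 and 7.29 CPM in GSK-126. Like Lhx1 it was highest in replicate 2 of each group and lower with GSK-126 in all 3 pairs, and its groups did not overlap. Its blocked log2 fold change was -0.57 (standard error 0.210) and did not pass (edgeR adjusted p = 0.191). The stretch between the 2 starts is shown because both transcripts begin at its ends. It is 124 bases long (GRCm38.p6, chr11:84525536-84525659, minus strand, so read towards Lhx1), holds 12 CG dinucleotides, in capitals, and overlaps no annotated exon of either gene:
Lhx1 to Lhx1os: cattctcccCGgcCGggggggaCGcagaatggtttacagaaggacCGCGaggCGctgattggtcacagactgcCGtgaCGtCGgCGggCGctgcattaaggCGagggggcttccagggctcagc

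The calcium-binding proteins had positive fold changes but no common direction. Calb1 (calbindin, chr4:15881264-15908064, plus strand) had 13.4, 9.13 and 11.2 CPM in DMSO and 8.33, 20.2 and 16.9 CPM in GSK-126. It was lower with GSK-126 in pair 1 and higher in pairs 2 and 3, and in all 3 pairs the counting intervals were apart, so its pairs disagreed by more than counting error. The within-pair ratios were -0.67, 1.13 and 0.58 on the log2 scale, and the blocked fold change was 0.35 with an interval of -0.31 to 1.01 (edgeR adjusted p = 0.623). Without pair 2 that value was -0.03. Per length, Calb1 was 0.140 to 0.146 times Gad1 in the 3 DMSO libraries and 0.124, 0.365 and 0.272 times Gad1 in GSK-126.

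Pvalb (parvalbumin, chr15:78191114-78206400, minus strand) was counted least often. It had 12, 31 and 23 counts in DMSO and 50, 15 and 35 in GSK-126, which is 1.38, 3.88 and 2.72 CPM against 4.16, 1.81 and 3.99 CPM. It was higher in pairs 1 and 3 and lower in pair 2, beyond the counting intervals in pair 1 only. Its blocked log2 fold change of 0.35 had an interval of -0.75 to 1.46 and turned to -0.22 without pair 1. That interval holds both a 2-fold increase and a decrease as large as that of Slc32a1, so neither is shown or set aside by these libraries.

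**Figure D2:**
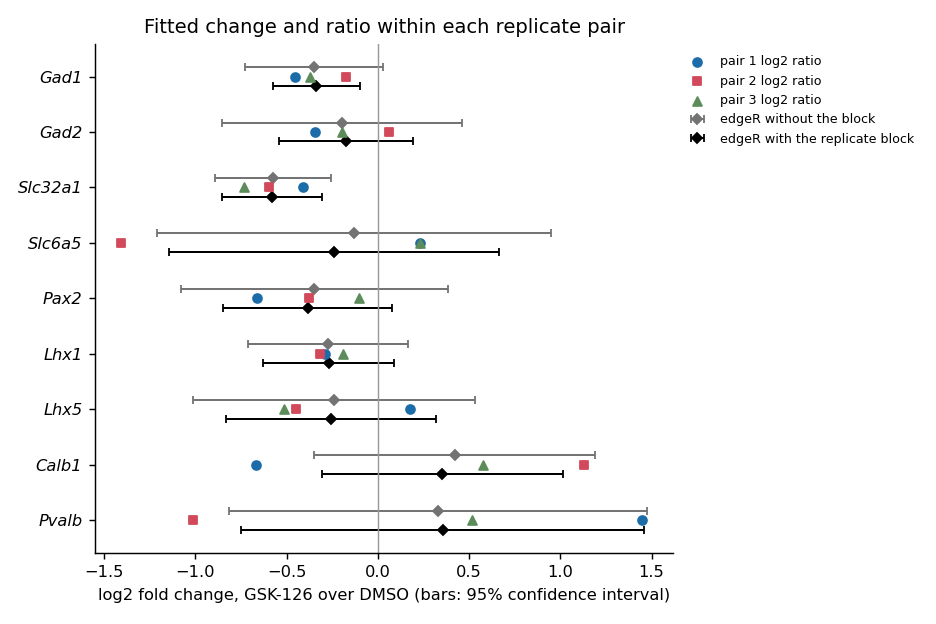
Log2 fold change of each gene, GSK-126 over DMSO, with the ratio within each replicate pair as coloured points, and the edgeR estimate without (grey) and with (black) the replicate block as diamonds with 95% confidence intervals. Only the intervals of Slc32a1 stay below 0 in both fits. The 3 pair ratios lie close together for Lhx1, from -0.32 to -0.19, and far apart for Pvalb, from -1.01 to 1.45.

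Read per exon length (RPKM, the CPM per kilobase of exon), the 9 genes spanned a wide range of levels. In DMSO the order was Slc32a1 at 22.0 ± 1.28 RPKM, Gad1 at 16.2 ± 3.08, Lhx1 at 5.31 ± 0.729, Gad2 at 3.73 ± 1.21, Lhx5 at 2.96 ± 0.777, Pvalb at 2.55 ± 1.20, Pax2 at 2.45 ± 0.561, Calb1 at 2.32 ± 0.439 and Slc6a5 at 0.547 ± 0.0241 (SD, n = 3). The library ranges of Slc32a1, Gad1 and Lhx1 were apart from that of the next gene, those of the 5 genes from Gad2 to Calb1 overlapped from neighbour to neighbour, and Slc6a5 lay below all of them. Among the genes tested, Slc32a1 stood at the percentile 84.3 of DMSO RPKM, Gad1 at 77.4 and Slc6a5 at 5.01. In GSK-126 the first 4 places and the last were held by the same genes, with Slc32a1 at 14.8 ± 1.68 and Gad1 at 12.7 ± 1.21 RPKM, and there the ranges of these 2 overlapped. GABAergic transcripts were thus readily detected in these granule neuron cultures. The vesicular transporter was above each synthesising enzyme in mean level per exon length only. In mean CPM, not divided by length, Gad1 was above Slc32a1, at 123 against 61.6 in DMSO and 97.0 against 41.3 in GSK-126.

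**Figure D3:**
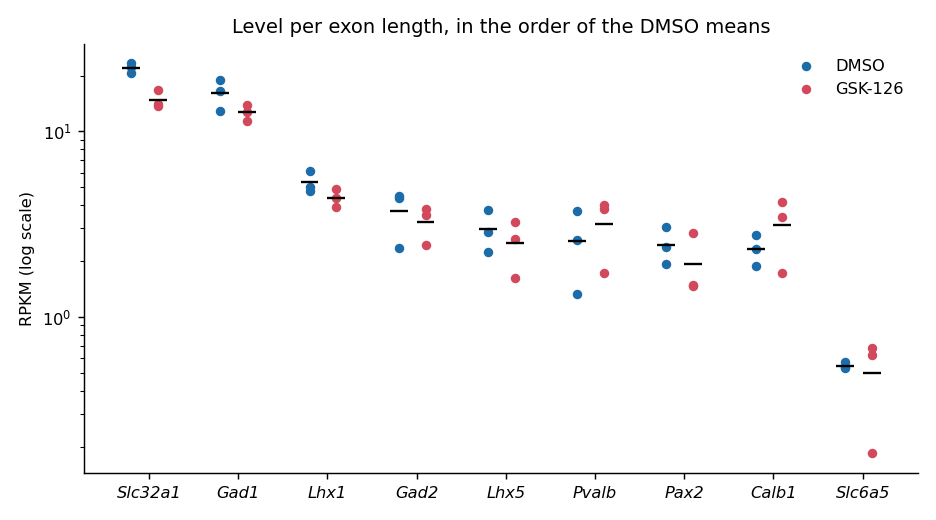
Level per exon length (RPKM, log axis) of the 9 genes in the 3 DMSO (blue) and 3 GSK-126 (red) libraries, ordered by the DMSO mean; short lines are group means. Slc32a1 (22.0 RPKM in DMSO) and Gad1 (16.2) lie above the other genes, and Slc6a5 (0.547) lies lowest.

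Among 21 further genes of GABA and glycine metabolism and transport, 19 were tested, and with the block 2 were lower and none higher, with a median blocked log2 fold change of -0.04. Among those lower was Slc6a13 (GAT-2), a GABA transporter known from the meninges and blood vessels, which had 50.2, 4.38 and 10.8 CPM in DMSO and 22.9, 2.65 and 4.33 CPM in GSK-126. It varied between replicate numbers by more than between groups, yet was lower in each pair (blocked log2 fold change -1.10, SE 0.205, adjusted p = 0.0153). The next largest changes, of Slc6a11 (GAT-3, the astrocyte GABA transporter, -0.40, adjusted p = 0.170) and of the glutamate transporter Slc1a1 (-0.30, adjusted p = 0.444), did not pass. Abat, which breaks GABA down and is named for that role after its values were seen, had a blocked log2 fold change of -0.04.

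Of 28 regulators of the GABAergic lineage 14 passed the filter and none was called by edgeR, with or without the block, nor had an unadjusted p under 0.05 in either fit. Their median blocked log2 fold change was 0.14, above 0 where that of the 9 members was below. Gata3, a zinc-finger factor of the lineage, had a value of 0.76 (standard error 0.474, edgeR adjusted p = 0.468). Ptf1a, the factor that sets the GABAergic fate in cerebellar progenitors, had 0, 0 and 0 counts in DMSO and 2, 0 and 1 in GSK-126. Neurog1, Skor2, Dlx5 and Dlx6 had 0 counts in all 6 libraries, where a count of 0 allows 0.249 to 0.372 CPM depending on the library (3 counts; counting error only). Transcripts of postmitotic GABAergic neurons were thus present while Ptf1a was at or near 0.

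Of 17 further markers of cerebellar inhibitory interneurons 13 were tested, and with the block 2 were lower, Cdh22 among them, and none was higher. Cdh22, a cadherin, had 56.5, 96.9 and 57.4 CPM in DMSO and 31.6, 41.3 and 27.1 CPM in GSK-126, without overlap (blocked log2 fold change -1.05, SE 0.128, edgeR adjusted p = 0.00245). The median of the list was 0.15, so most of its genes did not share that direction. Npy had the largest value among those that did not pass (0.84, adjusted p = 0.354). Kit, the receptor that marks basket and stellate cells and is named here after its values were seen, had a blocked log2 fold change of -0.33 (standard error 0.139, adjusted p = 0.263). The summed CPM of the 17 markers was 493 to 525 in DMSO and 433 to 465 in GSK-126, with at most 2 of them at 0 in a library, and that of the 9 members was 292, 228 and 282 in DMSO and 223, 196 and 225 in GSK-126. Both sums were lower with GSK-126 in each pair.

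Purkinje cells share Gad1, Gad2, Slc32a1 and Pvalb with interneurons, and Lhx1, Lhx5 and Calb1 are best known from them, so further Purkinje cell markers were read beside the 9 genes. Of 16 Purkinje cell markers 12 were tested, with a median blocked log2 fold change of 0.20. The glutamate transporter Slc1a6 was higher (19.3 ± 1.98 CPM in DMSO and 38.4 ± 5.17 in GSK-126, blocked log2 fold change 0.99, SE 0.148, edgeR adjusted p = 0.00601), the other 11 did not pass, and Skor2 was at 0 throughout. The summed CPM of the list was 444 to 512 in DMSO and 515 to 550 in GSK-126, higher in each pair, where that of the 9 members was lower. Its largest terms were Dner (mean 175 CPM in DMSO and 170 in GSK-126) and Aldoc (86.1 and 87.6), and Aldoc is also on the astrocyte list. Pcp2 was at 2.55 and 2.02 CPM and Ppp1r17 had 0 to 3 counts per library, so the sum is a poor measure of Purkinje cell content. The part of Purkinje cells in the members' values was not tested.

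**Figure D4:**
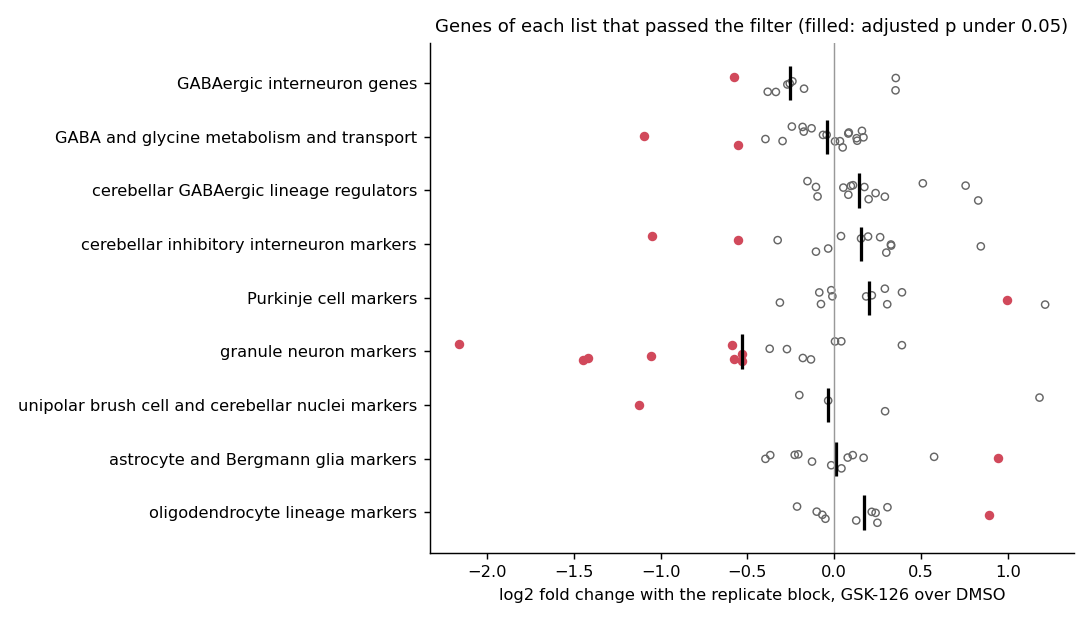
Blocked log2 fold change, GSK-126 over DMSO, of every tested gene in the list of 9 GABAergic genes and in 8 further lists; red filled points have an adjusted p under 0.05 and black bars are list medians. The 9 genes have a median of -0.26 with Slc32a1 as the called gene, the lineage regulators have none called, and the granule neuron markers reach lowest, with a median of -0.53.

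Marker sums of other cell types also differed between the groups or the replicate numbers. The 15 granule neuron markers had a summed CPM of 6984 to 9272 in DMSO and 4958 to 7668 in GSK-126, lower in each pair, and 8 of the 15 were lower with the block and none higher. The 12 astrocyte and Bergmann glia markers varied mainly with the replicate number, at 8045, 2818 and 5042 CPM in DMSO and 8310, 2806 and 4342 CPM in GSK-126. Replicate 2 was thus lowest in glial markers and highest in granule neuron markers. Gad1, Gad2, Slc32a1, Pax2 and Lhx5 were also lowest in replicate 2 of both groups, whereas Lhx1 was highest there. How many of all genes tested were lowest there in both groups was not counted, so nothing is read from this. Among oligodendrocyte lineage genes Cspg4 was higher (0.89, edgeR adjusted p = 0.00846), among glial markers Gdf10 was higher (0.94, adjusted p = 0.0459), and among markers of unipolar brush cells and cerebellar nuclei Eomes was lower (-1.12, adjusted p = 0.0332). The part of any of these cell types in the lower Slc32a1 was not tested.

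The mean centred log2 CPM of Gad1, Gad2 and Slc32a1 gave a profile over the 6 libraries, and the genes most like it were 4933412A08Rik (Pearson r = 0.988), Kcnn1, Elof1, Cd99l2 and Rad51c (r = 0.982). These are descriptions over 6 libraries that share depth, scaling and 3 replicate numbers, and 83 of 16334 genes had an r over 0.9. None of the 5 was called (edgeR with the block). Of the other members Lhx5 followed the profile most closely (r = 0.814), then Pax2 (0.637) and Slc6a5 (0.563), whereas Lhx1 (-0.09), Pvalb (-0.30) and Calb1 (-0.34) did not follow it.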

How the data were processed

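Poly(A)-selected RNA of 6 CGN cultures was sequenced as paired-end reads. The authors trimmed reads with Trimmomatic 0.38, aligned them with STAR 2.7.2b to GRCm38 (mm10) and counted them over exons with HTSeq. The deposited values are whole-number counts per gene symbol, 1 table per library, not normalized and not pooled. Each table also held summary rows for reads assigned to no gene, which were not used. Those summary rows held 58.4% to 60.9% of all counts in a table. The summary row for reads that the counting matched to no exon held 44.8% to 46.7% of all counts. As the strand setting was not given, that row may include reads over exons on the other strand. Total counts over genes were 8058760 to 12047837 per library, TMM factors 0.994 to 1.01. No pair of libraries agreed within sampling noise.

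Counts were tested with edgeR 4.0.16 (filterByExpr, TMM, quasi-likelihood test, Benjamini-Hochberg over the 16343 genes passing), without the replicate number and, as an alternative, with it as a block. Same-numbered libraries deviated together in each of the 3 pairs (r 0.35 to 0.52), so the numbers were taken to pair the samples. Deviations were taken from the mean of each group. Positive values within numbers therefore pull those between different numbers (r -0.41 to -0.01) below 0, and the latter add no separate support. The block lowered the biological coefficient of variation from 0.243 to 0.142. Replicates are cultures of pooled litters, so p-values without the block measure the spread between 3 cultures per group. Those with the block measure how far the treatment difference varied between the 3 pairs. Other alternatives were DESeq2 1.42.0, limma-voom 3.58.1, RLE and upper-quartile scaling, no filter, and leaving out libraries or pairs. Within-pair ratios are differences of log2 CPM with a prior count of 2. RPKM used the union of GENCODE M21 exons, in which all 55341 symbols were found and from which coordinates come. Promoter windows came from RefSeq (GRCm38.p6). Poisson intervals and the floor of 3 counts cover counting error only, as reads carried no molecular identifiers. Fits were tested on simulated data.

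The members and lists were chosen with earlier results of these data known. Named were all 9 members, list genes called in either fit, up to 2 further genes per list by size of blocked change, genes overlapping a member's exons on the other strand, and the 5 genes most like the profile of Gad1, Gad2 and Slc32a1; a few of the list genes are not reported here. The day of addition and the dose were not in the labels.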

Additional observations from a re-analysis of the deposited data

How the results depend on the processing

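The count of genes called was 0 without the block (981 genes at an unadjusted p under 0.05) and with limma-voom, RLE or upper-quartile factors, 597 with the block, 48 with DESeq2 (33 higher, 15 lower), 646 with DESeq2 and the block, and 85 with no filter. Leaving out 1 library, or 1 pair with the block, gave 0 to 704 genes (704, 178 and 359 without pairs 1, 2 and 3). Of the 9 members 1, Slc32a1, was called with the block in edgeR and in DESeq2, and 0 in the other fits of all libraries. Leaving out libraries or pairs gave 0 to 1 members and a median log2 fold change of -0.39 to -0.028. The block changed no other member's call. Slc6a5 turned to 0.25 without GSK-126 replicate 2 (range -0.41 to 0.25 with 1 library left out) and to 0.26 with the block and without replicate 2, Calb1 to -0.027 with the block without replicate 2, and Pvalb to -0.22 with the block without replicate 1. The cause of these shifts was not tested. Of the alternatives compared, 200 values kept direction and call, or moved by less than the spread. A further 13, all of them counts of genes or members called or the median, moved, 4 reversed direction and 4, all of Slc32a1, became stronger. Slc6a5 (11 to 54 counts per library) and Pvalb (12 to 50) had blocked intervals that hold a decrease of the size seen in Slc32a1. The blocked intervals of Pax2, Lhx1 and Lhx5 hold it too. Counting error was not separated from the spread between cultures.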
